A study of Mus musculus with 6 samples.

Results

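The genes of retinoic acid synthesis and reception were followed in embryonic mouse lenses. They are Rdh10, Aldh1a1, Aldh1a2, Aldh1a3, Crabp1, Crabp2, Rara, Rarb and Rarg. These 9 genes were taken by symbol from the 13024 genes of the deposited count table. All 9 were present, and all 9 passed the filter on low counts (10 or more counts in 3 or more libraries).

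RNA-Seq was performed on pools of E14.5 lenses to compare lenses in which Gata3, a zinc finger transcription factor, was targeted for deletion with lenses in which it was not. Each group held 3 biological replicates, each a pool of 10 lenses taken from 5 embryos of a mixed C57BL/6 and FVB background. The Gata3 CKO pools carried Gata3 f/f and Pax6-Cre/+, in which a Pax6 enhancer and promoter drive Cre in the surface ectoderm that forms lens and cornea and in scattered retinal cells. The other pools are called wild type in the sample labels and are given as Gata3 f/f in the methods and as Gata3 f/wt without Cre in the results of the study, so they are called control here. Cre was present only in the Gata3 CKO pools, so an effect of Cre itself cannot be told apart from that of the deletion. In bulk pools, fewer cells of a type and less RNA per cell cannot be told apart either.

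Retinoic acid is made from retinol (vitamin A) by successive oxidations, first to retinaldehyde and then to the acid. It binds nuclear receptors of the RAR family, which pair with RXR on DNA and switch target genes, and CYP26 enzymes break it down. In the developing eye, the retinaldehyde dehydrogenases are known from separate places, Aldh1a1 from dorsal retina and lens, Aldh1a3 from ventral retina and Aldh1a2 from the mesenchyme around the eye.

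The 300 bases around the transcription start are shown for 3 genes because they hold motifs of the factors in question, the response element of the retinoic acid receptors and the GATA motif. RefSeq start windows (GRCm38.p6, 250 bases before and 50 after the start) were available for 6 of the 9 genes, in 11 windows, and were not given for Aldh1a3, Rdh10 and Crabp2. A DR5 element was searched as a direct repeat of the unit AGGTCA, the unit AGTTCA, the unit GGGTCA or the unit GGTTCA with a spacer of 5 bases, on both strands. It was found in 1 of the 11 windows, that of Rarb, 53 to 37 bases upstream of the start, against 0.0974% of all 32851 windows. The other printed DR5 element lies at Cyp26a1, which is not among the 9 genes, encodes an enzyme of retinoic acid breakdown and holds it on the opposite strand, 32 to 16 bases upstream. A DR2 element, the same units with a spacer of 2 bases, was found in 0 of the 11 windows and in 0.268% of all windows. The GATA motif (the letters AGATAA, the letters AGATAG, the letters TGATAA or the letters TGATAG, both strands) was found in 3 windows, 2 of Aldh1a1 and 1 of Rarg, and in 29.8% of all windows. The Aldh1a1 window printed here holds 2 matches. Capitals mark the DR5 letters in Rarb (chr14:16575427-16575726, reverse strand) and Cyp26a1 (chr19:37697558-37697857, forward strand) and the GATA letters in Aldh1a1 (chr19:20601718-20602017, forward strand).
Rarb: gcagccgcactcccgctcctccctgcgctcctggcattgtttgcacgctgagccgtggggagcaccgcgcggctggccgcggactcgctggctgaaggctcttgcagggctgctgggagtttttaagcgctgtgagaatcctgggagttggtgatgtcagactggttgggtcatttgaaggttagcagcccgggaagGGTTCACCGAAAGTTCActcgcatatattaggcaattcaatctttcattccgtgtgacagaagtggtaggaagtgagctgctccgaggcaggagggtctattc
Cyp26a1: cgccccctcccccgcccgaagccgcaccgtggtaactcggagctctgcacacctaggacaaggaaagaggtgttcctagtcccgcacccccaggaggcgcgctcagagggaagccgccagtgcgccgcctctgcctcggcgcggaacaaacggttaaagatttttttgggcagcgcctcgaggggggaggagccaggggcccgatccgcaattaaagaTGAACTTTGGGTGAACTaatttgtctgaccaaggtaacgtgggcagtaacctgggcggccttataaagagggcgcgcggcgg
Aldh1a1: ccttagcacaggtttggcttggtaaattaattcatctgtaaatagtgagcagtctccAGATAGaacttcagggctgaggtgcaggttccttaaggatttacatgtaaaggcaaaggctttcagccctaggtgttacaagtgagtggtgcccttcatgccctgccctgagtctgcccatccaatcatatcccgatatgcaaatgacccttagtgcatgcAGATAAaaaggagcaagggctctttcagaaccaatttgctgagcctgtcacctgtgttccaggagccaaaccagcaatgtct

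A match to these letters is a description of the sequence and not a measured binding site. The printed Rarb and Aldh1a1 starts both lie inside the genes as GENCODE draws them, and the deposited counts are summed over each gene, so they do not show which start was used.

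Between 15157230 and 18811104 fragments were counted per library. Values are given as CPM, counts divided by TMM-normalised library size, as mean ± SD of 3 pools. Lens markers were high in every library, with 16 of 16 crystallin genes summing to 64183–189398 CPM in control and 52089–71416 in CKO. Control replicate 2 stood apart, with 16.5% of its counts on crystallins against 5.47–9.31% in the other 5 libraries. All 11 retina markers were also present, at 1604–3572 CPM in control and 2445–3299 in CKO. The 9 mesenchyme markers ranged from 248 to 4044 CPM and were highest in CKO replicate 2 and then control replicate 1. The count of Gata3 was higher in the libraries labelled CKO (910, 1064 and 894) than in control (202, 386 and 156). These counts cover the whole gene and not the deleted exon 4, so they do not check the deletion. Of the lens lists, 15 of 16 crystallin genes and 13 of 13 fibre genes were lower in the libraries labelled CKO. Their median log2 fold changes were -1.19 and -1.04. Groups did not overlap for 10 crystallin and 6 fibre genes, against 8.36% of all genes. None of them was called in edgeR, which called 0% of all genes. Directions below are those of the libraries labelled CKO.

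Among the 9 genes, Aldh1a1 was the only gene whose control and CKO pools did not overlap. It stood at 0.599 of its control level in CKO. The other 8 had overlapping groups and log2 fold changes between -0.10 and 0.41. In edgeR's quasi-likelihood test with Benjamini-Hochberg adjustment over all 12879 genes, 0 of the 9 had an adjusted p under 0.05, where the share of all genes was 0%. At an unadjusted p under 0.05 there was 1 of the 9, Aldh1a1, and 457 of all genes (3.55%). DESeq2's Wald test called 1 of the 9, again Aldh1a1, and 85 of all genes (0.661%), or with a prior on fold changes the same gene and 78 of all genes (0.606%), and limma voom called 0 of the 9 and 0 of all genes. Groups that did not overlap were seen for 1 of the 9 and for 8.36% of all genes, or 4.69% for those lower in CKO as Aldh1a1 was. Log2 fold changes were above 0 for 6 and below 0 for 3, with a median of 0.09 against 0.00 for all genes tested. That median changed sign with the libraries used, being -0.15 without CKO replicate 2, -0.0052 without control replicate 3 and 0.20 without control replicate 1 or CKO replicate 1.

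**Figure D1:**
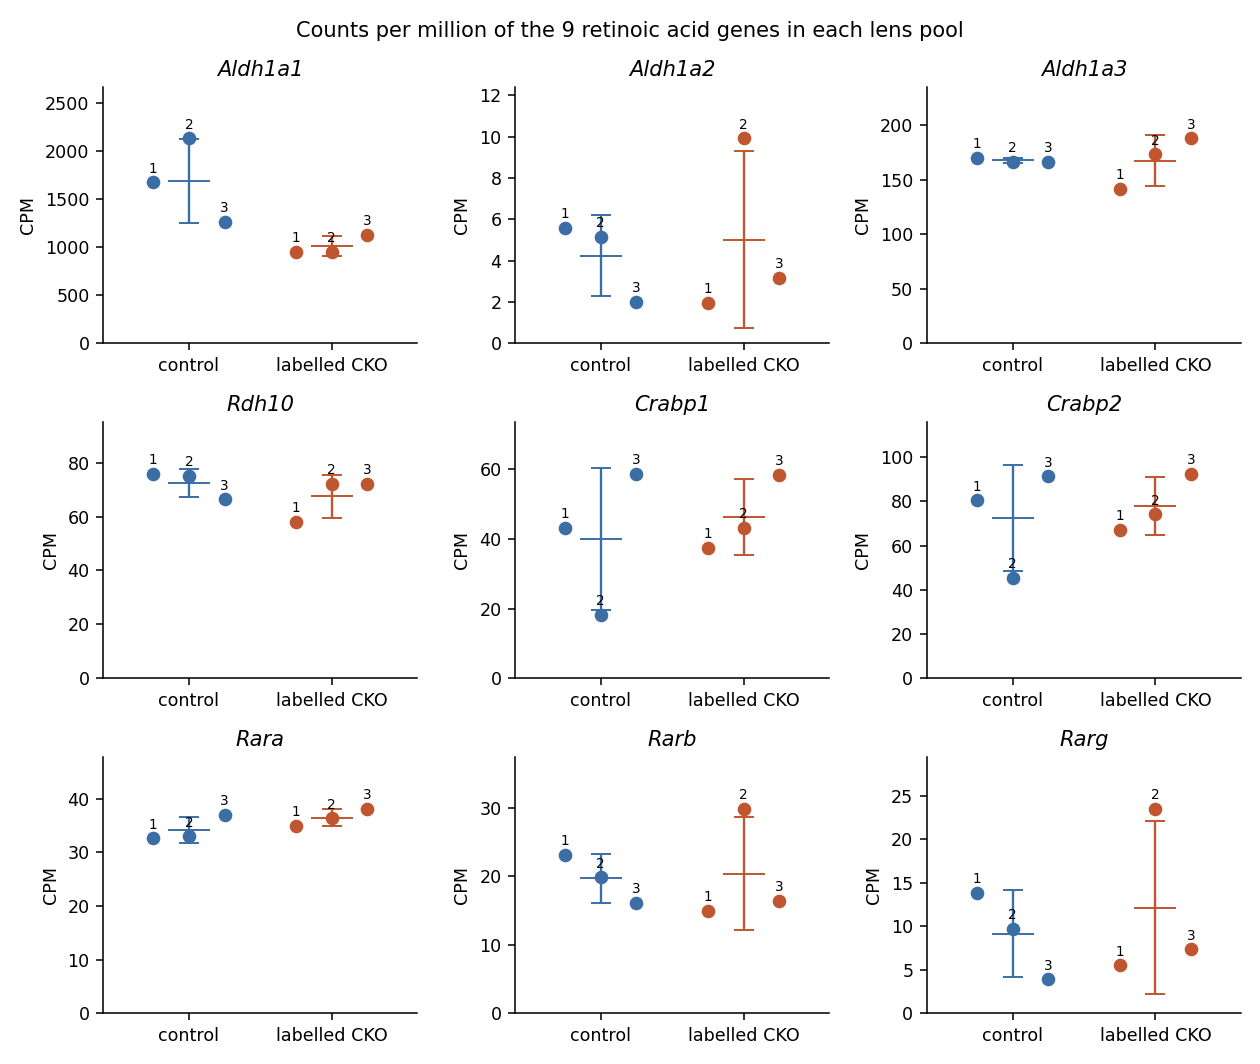
CPM (vertical axes, from 0) of the 9 genes in each pool, numbered by replicate, for control (blue) and the libraries labelled CKO (orange), with bars for the mean and SD of 3 pools. Aldh1a1 is the gene whose groups are apart, Aldh1a2, Rarb and Rarg share a high CKO replicate 2, and Crabp1 and Crabp2 share a low control replicate 2.

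Rdh10 (chromosome 1, 16105774–16133734, forward strand) encodes the dehydrogenase that turns retinol into retinaldehyde. Its level was 76.0, 75.0 and 66.4 CPM in control replicates 1, 2 and 3 and 58.2, 72.1 and 72.2 CPM in CKO. The groups overlapped, and CKO replicate 1 was the lowest library. For Rdh10 the log2 fold change was -0.10 (SE 0.11, 95% interval -0.37 to 0.16).

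Aldh1a1 (chromosome 19, 20492715–20643465, forward strand) encodes a dehydrogenase that oxidises retinaldehyde to retinoic acid. It held 1675, 2132 and 1261 CPM in control replicates 1, 2 and 3, from 26437, 30259 and 22574 counts. In CKO it held 954, 952 and 1130 CPM, from 14709, 18709 and 21722 counts. All 3 control pools were above all 3 CKO pools, but the gap was narrow, since control replicate 3 and CKO replicate 3 were the nearest pair. The control pools also spread more widely (SD 436 CPM) than the CKO pools (SD 103 CPM). The log2 fold change was -0.74 (SE 0.20, 95% interval -1.21 to -0.27) with an adjusted p of 0.853 from edgeR's quasi-likelihood test. DESeq2 gave the same log2 fold change of -0.74 with an adjusted p of 0.0393, and the adjusted p over all alternatives was 0.0393 to 1. Aldh1a1 is on the list of changed genes that the study took from these same libraries, so its direction here is not independent evidence. Leaving out any of the libraries gave values from -0.91 without control replicate 3 to -0.53 without control replicate 2. The groups stayed apart each time, which their being apart with all libraries already fixes but for small rescaling.

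**Figure D2:**
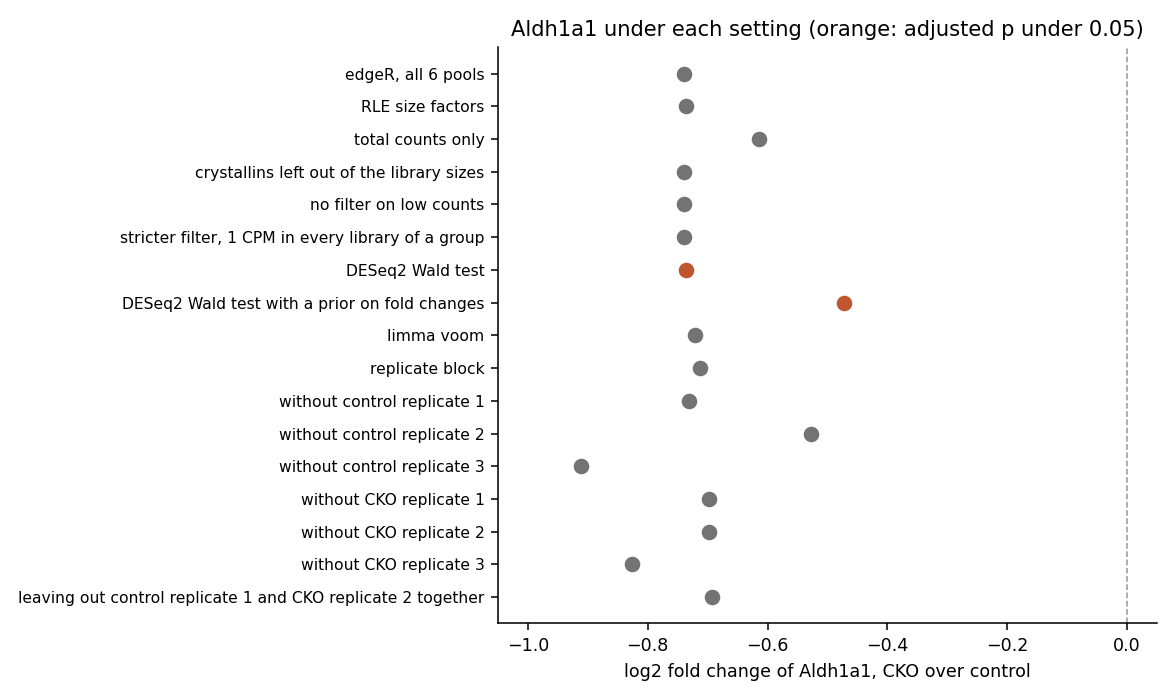
Log2 fold change of Aldh1a1, CKO over control (horizontal axis), under each normalisation, filter, test and set of libraries (vertical axis), with points in orange where the adjusted p was under 0.05. Every point lies below 0, from -0.91 to -0.47, and only the DESeq2 tests passed the threshold.

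Control replicate 2, the library with the highest crystallin share, also had the highest Aldh1a1. Several marker lists were highest in that library too, with 5 lens epithelium markers at 1034–1400 CPM in control and 1044–1102 in CKO and 13 lens fibre markers at 8234–23964 CPM in control and 7733–11419 in CKO. The 6 macrophage markers (75–139 CPM in control, 66–86 in CKO) and the 6 vessel markers (255–325 and 232–287) were highest there as well, and none of these markers was at 0 in any library. Blood markers summed to 1276 CPM in control replicate 2 and to 283–534 in the others. By root mean square difference of log2 CPM, each profile centred on its own mean, macrophages were nearest to Aldh1a1 (0.164). Lens epithelium (0.288), vessels (0.321), blood (0.38) and lens fibre (0.422) came after these. Their part in the Aldh1a1 result was not tested. Without control replicate 2, the log2 fold change of Aldh1a1 was -0.53.

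Aldh1a3 (chromosome 7, 66390890–66427517, reverse strand), the sister enzyme known from ventral retina, was at nearly equal levels in the control pools. It held 170, 166 and 166 CPM in control and 141, 173 and 188 CPM in CKO. The CKO pools lay on both sides of the control pools, and the log2 fold change was -0.00023 (SE 0.11, 95% interval -0.26 to 0.26).

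Aldh1a2 (chromosome 9, 71215789–71296243, forward strand), the enzyme of mesenchyme, was the lowest of these dehydrogenases. It held 5.58, 5.14 and 2.01 CPM in control and 1.95, 9.92 and 3.17 CPM in CKO. CKO replicate 2 was the highest and CKO replicate 1 the lowest of the 6 libraries. With all 6, the log2 fold change was 0.25 (SE 0.67, 95% interval -1.35 to 1.86), and it was -0.71 without CKO replicate 2.

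The share of each gene in the retinaldehyde dehydrogenase counts restates these levels, since Aldh1a3 was at the same mean level in both groups and Aldh1a1 was not. It is not a separate result. Aldh1a1 took 90.5%, 92.6% and 88.2% of the counts of these 3 genes in control replicates 1, 2 and 3. It took 86.9%, 83.9% and 85.6% in CKO. The mean share was 90.4% ± 2.17 in control and 85.5% ± 1.54 in CKO (SD, n = 3), with no overlap (p = 0.1 in a two-sided exact permutation test, which cannot go lower with 3 pools a group). Aldh1a3 took 9.35% ± 2.22 in control and 14.1% ± 1.19 in CKO, and Aldh1a2 took under 1% in every library, 0.141–0.874%. Per kilobase of exon, the mean share of Aldh1a1 was 94.5% in control and 91.4% in CKO.

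Aldh1a1 has a close copy beside it in the mouse genome, Aldh1a7. A coding transcript of each was aligned, and they matched at 89.6% of 2050 aligned bases. Of the 50-base windows of Aldh1a1, 7.54% were also found in Aldh1a7, and of its 100-base windows 0.0512%. Some short reads may thus not be told apart between the 2 genes, and the effect on their counts was not tested. Aldh1a7 held 124, 196 and 81.9 CPM in control and 121, 97.4 and 96.2 CPM in CKO (log2 fold change -0.35). Its groups overlapped, and it too was highest in control replicate 2.

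The study lists a quantitative PCR primer pair under the name Aldh1a, which is shown because it bears on which copy such an assay reads. The forward primer was found without mismatch in both Aldh1a1 and Aldh1a7. The reverse primer was found without mismatch only in Aldh1a1, and it differs from Aldh1a7 by A4G, counted from 1 at its 5′ end, with the base in capitals. The product on Aldh1a1 is 102 bases long. The pair thus differs from Aldh1a7 by 1 base in all, and whether it also amplifies Aldh1a7 was not tested.
Forward: cctgcaactgaggaggtcat
Reverse: tggAgagccaatctggaaag

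Crabp1 (chromosome 9, 54764748–54773110, forward strand) and Crabp2 (chromosome 3, 87948666–87953376, forward strand) encode small proteins that bind retinoic acid inside the cell. Crabp1 held 43.2, 18.3 and 58.8 CPM in control replicates 1, 2 and 3 and 37.4, 43.2 and 58.4 CPM in CKO. Crabp2 held 80.5, 45.3 and 91.3 CPM in control and 67.1, 74.2 and 92.7 CPM in CKO. Both were lowest in control replicate 2, and in both the replicates numbered 3 were the highest of their groups. The log2 fold change was 0.21 for Crabp1 (SE 0.40, 95% interval -0.76 to 1.17) and 0.11 for Crabp2 (SE 0.26, 95% interval -0.53 to 0.74). Without control replicate 2 each of them turned to -0.13. The summed retina markers were also lowest in control replicate 2, at 1604 CPM, and highest in control replicate 3, at 3572 CPM, and their part in these levels was not tested.

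Rara (chromosome 11, 98927818–98974942, forward strand) encodes the most widely expressed retinoic acid receptor. It was also the steadiest of the 9 genes, with 32.6, 33.0 and 37.0 CPM in control and 34.9, 36.3 and 38.1 CPM in CKO. Its groups overlapped through control replicate 3, and the log2 fold change was 0.09 (SE 0.09, 95% interval -0.12 to 0.31).

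Rarb (chromosome 14, 16430839–16819156, reverse strand) encodes the receptor whose promoter holds the DR5 element printed above. It held 23.2, 19.9 and 16.1 CPM in control and 14.9, 29.9 and 16.4 CPM in CKO. The log2 fold change was 0.05 (SE 0.29, 95% interval -0.65 to 0.75), and it was -0.33 without CKO replicate 2. Rarb shares 1793 bases with exons of Top2b on the opposite strand, which is 34.1% of the 5265 exon bases of all its transcripts and 52.9% of the 3392 in its protein-coding transcripts, and the strand option of the counting is not given in the sources used here, so its level is uncertain.

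Rarg (chromosome 15, 102234938–102257517, reverse strand) encodes the receptor known from skin and skeletal tissue. It held 13.8, 9.73 and 3.91 CPM in control and 5.51, 23.5 and 7.34 CPM in CKO. Its highest library, CKO replicate 2, was 6.01 times its lowest, control replicate 3. The log2 fold change of 0.41 (SE 0.66, 95% interval -1.18 to 2.0) turned to -0.50 without CKO replicate 2.

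Aldh1a2 and Rarb ranked the 6 libraries in the same order, and Rarg differed from that order only in its lowest pair. In all of them CKO replicate 2 was the highest and control replicate 1 the next. Mesenchyme markers stood at 2229, 485 and 249 CPM in control replicates 1, 2 and 3 and at 248, 4044 and 521 CPM in CKO, and 6 of 7 pigment cell markers in the table summed to 341, 98.6 and 69.8 CPM in control and 86.4, 341 and 72.6 CPM in CKO. The 7 surface ectoderm markers summed to 86.3, 74.4 and 39.6 CPM in control and 47.8, 121 and 62.8 CPM in CKO. By root mean square difference of centred log2 CPM, surface ectoderm was the nearest list to Aldh1a2 (0.397), Rarb (0.176) and Rarg (0.395). Pigment cells were at 0.603, 0.686 and 0.488 and mesenchyme at 0.7, 1.063 and 0.634, the farthest of all lists for Rarb. The measure also depends on how wide the swings are. These lists were thus also highest in CKO replicate 2 and control replicate 1, pigment cells about equally so. Their part in the levels of Aldh1a2, Rarb and Rarg was not tested. Without both libraries, the log2 fold change was -0.45 for Aldh1a2, -0.19 for Rarb and -0.067 for Rarg, and that of Aldh1a1 was -0.69.

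**Figure D3:**
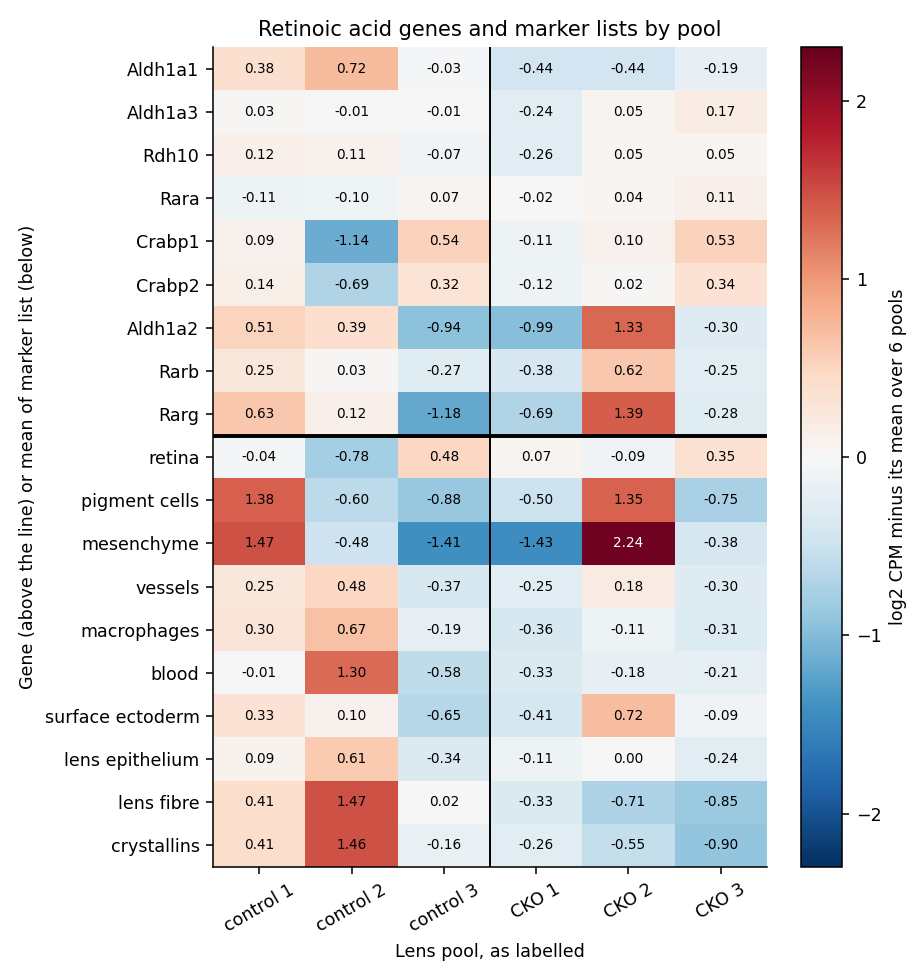
Log2 CPM minus its mean over the 6 pools (colour and printed value) for each of the 9 genes (above the line) and for the mean of each marker list (below), by pool as labelled (horizontal axis). Aldh1a2, Rarb and Rarg peak in CKO replicate 2, as do the surface ectoderm and mesenchyme lists. The pigment list is about equally high in control replicate 1 (1.38) and CKO replicate 2 (1.35). Crabp1, Crabp2 and the retina list are lowest in control replicate 2.

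Levels between genes were compared per kilobase of exon in protein-coding transcripts, over all 6 libraries. Aldh1a1 was the highest at 564 ± 195 CPM per kilobase, 6.98 times the next gene, Crabp2 at 80.7 ± 18.9, with no overlap between their libraries. Crabp1 followed at 53.8 ± 18.7, Aldh1a3 at 37.8 ± 3.40 and Rdh10 at 19.5 ± 1.86 (SD, n = 6). The receptors were lower, with Rara at 8.25 ± 0.52, Rarb at 5.91 ± 1.68 and Rarg at 3.13 ± 2.12, and Aldh1a2 was the lowest at 2.04 ± 1.33. The ranges of Crabp2, Crabp1 and Aldh1a3 overlapped from each to the next, as did those of Rara, Rarb, Rarg and Aldh1a2. Within libraries, however, Crabp2 was above Crabp1, Rarb above Rarg and Rarg above Aldh1a2 in 6 of 6. Crabp1 was above Aldh1a3, and Rara above Rarb, in 5 of 6. Rdh10 overlapped neither Aldh1a3 above it nor Rara below it. With the exons of all annotated transcripts as the length, the order was the same, but Aldh1a1 was at 274 ± 94.6 and Rarb at 3.81 ± 1.08 CPM per kilobase.

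**Figure D4:**
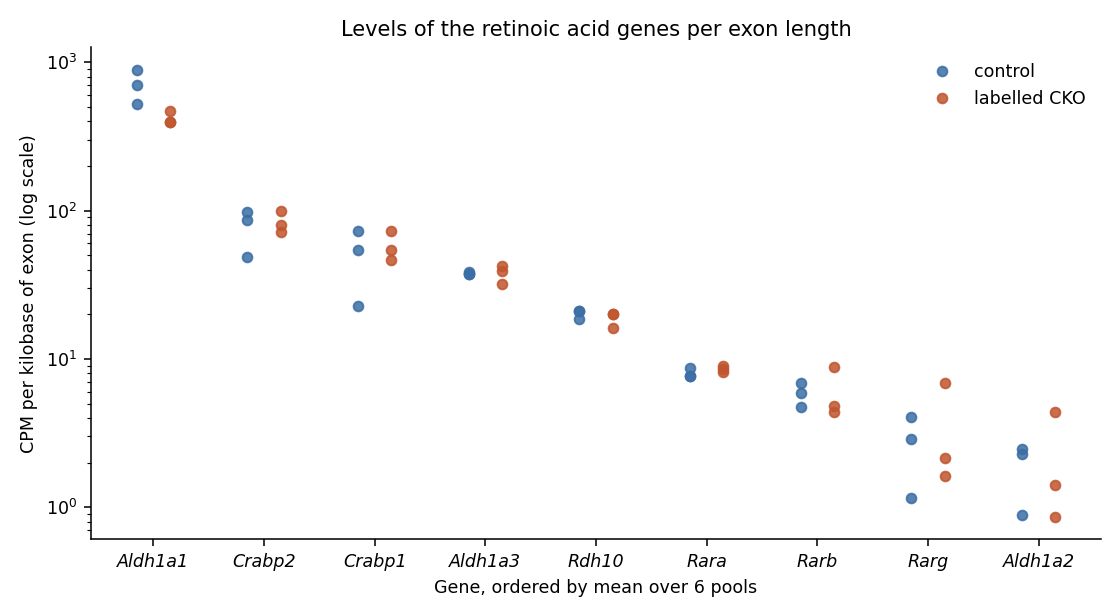
CPM per kilobase of exon (vertical axis, log scale) of the 9 genes, ordered by their mean over 6 pools, with 1 point per pool for control (blue) and the libraries labelled CKO (orange). Aldh1a1 lies above all others in every pool, and the receptors and Aldh1a2 lie lowest.

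Beyond these 9 genes, 7 lists of related genes held 68 symbols, of which 52 were in the table and tested. None of the 52 had an adjusted p under 0.05 in edgeR's quasi-likelihood test, where the share of all genes was 0%. DESeq2's Wald test also called 0 of the 52, where the share of all genes was 0.661%. With 25 higher and 27 lower and a median log2 fold change of -0.02, they lay close to all genes tested, whose median was 0.00. Groups that did not overlap were seen for 3 of the 52, Rdh11, Ncoa2 and Aldh1b1, against the 8.36% of all genes.

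For the uptake and storage of retinol, 6 of 9 genes were tested, 2 higher and 4 lower. Stra6, the cell surface receptor for retinol carried by its binding protein, was at 106 ± 31.8 CPM in control and 81.9 ± 11.3 in CKO (log2 fold change -0.38). Rbp4, that binding protein in plasma, had the highest log2 fold change of the list, 0.51, at only 2.52 ± 0.67 and 3.63 ± 2.19 CPM. Bco1, which cleaves carotene into retinaldehyde, had the lowest, -0.38, and the groups of all 6 genes overlapped.

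For the oxidation and reduction of retinol and retinaldehyde, 8 of 13 genes were tested, 2 higher and 6 lower. Rdh11, a retinaldehyde reductase, was at 35 ± 1.14 CPM in control and 32.0 ± 0.59 in CKO (log2 fold change -0.13), and its groups did not overlap. Adh5, a dehydrogenase found in most tissues, had the highest level, 156 ± 22.9 and 145 ± 7.48 CPM. Rdh5, a retinol dehydrogenase, had the lowest log2 fold change, -0.41, at 3.49 ± 0.89 and 2.62 ± 1.02 CPM. Adh1, an alcohol dehydrogenase, had the highest, 0.18, and both had overlapping groups. For the breakdown of retinoic acid, Cyp26a1 was at 17.2 ± 10.4 CPM in control and 19.1 ± 6.48 in CKO (log2 fold change 0.14). Cyp26b1 was at 6.37 ± 1.56 and 4.34 ± 2.06 CPM (log2 fold change -0.55), and both Cyp26 genes had overlapping groups.

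The receptor partners Rxra, Rxrb and Rxrg and the binding protein Fabp5 had log2 fold changes between -0.09 (Rxra) and 0.05 (Rxrg), with Fabp5 at 75.9 ± 10.7 CPM in control and 76.6 ± 4.77 in CKO. Among 12 receptor cofactors, 4 were higher and 8 lower, all within -0.16 and 0.09, the value of the deacetylase Hdac3. The lowest was Ncoa2, a coactivator, at 146 ± 7.30 CPM in control and 130 ± 4.92 in CKO, with groups that did not overlap. The highest level was that of the corepressor Ncor1, at 424 ± 14.8 and 382 ± 32.6 CPM.

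Of 11 genes known to respond to retinoic acid, 7 were tested, with 6 higher and 1 lower in CKO and a median log2 fold change of 0.20. All 7 had overlapping groups. None had an unadjusted p under 0.05 in edgeR's quasi-likelihood test, where 3.55% of all genes did. Nr2f1, an orphan nuclear receptor and the highest of them, was at 118 ± 18.4 CPM in control and 128 ± 15 in CKO. Rarres2, at 0.84 ± 0.32 and 1.08 ± 1.2 CPM, had the highest log2 fold change, 0.39 (SE 0.85). Nr2f2, a relative of Nr2f1, had the lowest, -0.0053.

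Of 16 further aldehyde dehydrogenases, 13 were tested, 7 higher and 6 lower. Aldh1b1, a mitochondrial enzyme that can also use retinaldehyde, was at 5.02 ± 0.77 CPM in control and 2.82 ± 0.44 in CKO. Its log2 fold change of -0.83 (SE 0.24) was the lowest of the list, its groups did not overlap, and its adjusted p was 0.967 in edgeR's quasi-likelihood test. Aldh7a1, the highest at 213 ± 77.0 and 176 ± 16.0 CPM, had a log2 fold change of -0.28. Aldh1l2, a mitochondrial enzyme of folate metabolism, had the highest log2 fold change of the list, 0.35 (SE 0.37), and its groups overlapped.

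**Figure D5:**
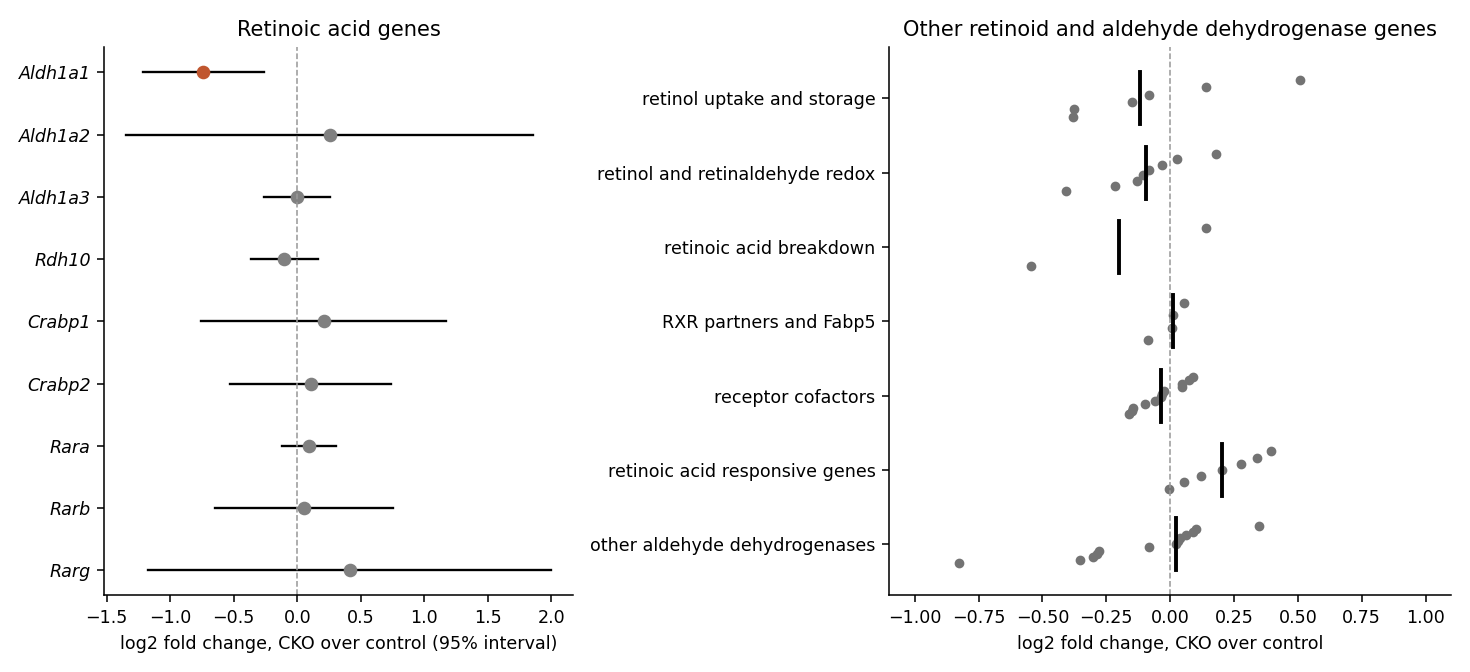
Log2 fold change, CKO over control (horizontal axes), for the 9 genes with 95% intervals (left, orange where the groups did not overlap) and for the 52 tested genes of 7 related lists (right, 1 point per gene, bar at the median). Aldh1a1, at -0.74, is the gene of the 9 whose interval excludes 0, and Aldh1b1 is the lowest of the related genes at -0.83.

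Genes with the most similar pattern over the 6 libraries were found by the root mean square difference of log2 CPM, each gene centred on its own mean, over all genes tested. They are named for the members that ranged over more than 1 log2 unit between libraries. For Aldh1a1 the nearest were Lrrc51 (0.093), Cyp4v3 (0.1) and the chaperone gene Dnajb1 (0.112). Cyp4v3, for example, held 32.1, 46.6 and 23.0 CPM in control replicates 1, 2 and 3 and 20.6, 18.1 and 21.3 CPM in CKO. For Aldh1a2 they were Capn6 (0.056), Col26a1 (0.156) and Myof (0.168), and for Rarg they were the desmosome gene Dsp (0.158), Cthrc1 (0.176) and Itga8 (0.177). For Rarb they were Itpripl2 (0.057), Cpm (0.066) and Rbms1 (0.078). For Crabp1 the nearest were BC064078 (0.087), Camk2n2 (0.101) and Chodl (0.107), and for Crabp2 they were Efna2 (0.045), Plscr1 (0.066) and 1700001G17Rik (0.069). These differences describe 6 libraries only.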

How the data were processed

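Lens RNA from 3 control and 3 Gata3 CKO pools at E14.5 was sequenced by the authors. Per the labels and the methods of the study, paired reads were aligned to mm10 with Tophat 2.0.13 and fragments were counted on RefSeq genes with HTSeq 0.6.1, whose strand option is not given in the sources used here. The deposited raw counts, not normalized, were used, and they hold genes with a mean FPKM above 1, a filter of the authors. The titles number the CKO pools 1 to 3 and the descriptions 2 to 4, and the title numbers are used.

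Counts were TMM-normalized and fitted by robust quasi-likelihood (edgeR 4.0.16 under R 4.3.3), and p-values were adjusted by Benjamini-Hochberg over the 12879 genes that reached 10 counts in 3 or more libraries, with a threshold of 0.05. The SD between pools exceeded the counting error (the square root of the mean count) in 17 of 18 pairs of gene and group among the 9 genes, the exception being Aldh1a3 in control. Alternatives were DESeq2 1.42.0, limma voom (limma 3.58.1), other normalizations and filters, a replicate block and each library left out. The smallest adjusted p of any gene was 0.0664. Positions and exon lengths came from GENCODE M21 (GRCm38). Shares were compared by an exact permutation test in scipy 1.17.1. To check the code, the fits were also run on counts simulated from the edgeR estimates. That simulation held no shift in cell make-up between pools, so it does not bear on such shifts. Log2 CPM used a prior count of 1.

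Named genes were the 9 genes and Gata3, the 3 nearest profiles of Aldh1a1 and of each gene ranging over more than 1 log2 unit, and from each related list the highest in level and the lowest and highest in fold change, with any whose groups did not overlap. The genes and lists were chosen with earlier results of these data known. Stra6 and Aldh1a7, for its likeness to Aldh1a1, and Cyp26a1, for its element, fall under these lists. Of 8 blood markers, 7 were in the table, and 3 of those were at 0 in some library. The 4 tested summed to 348–1276 CPM in control, highest in replicate 2, and 283–412 in CKO.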

Additional observations from a re-analysis of the deposited data

How the results depend on the processing

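The log2 fold change of Aldh1a1 was below 0, and its groups did not overlap, under every alternative for which each was computed. When libraries are left out, groups that start apart stay apart but for small rescaling, so there neither outcome is a separate check. Aldh1a1 passed the threshold only in DESeq2, at -0.74 without and -0.47 with a prior on fold changes. Its log2 fold change ran from -0.91 to -0.53 with 1 library left out. The number of the 9 genes called was 1 in both DESeq2 tests, and that of all genes was 85 and, with the prior, 78. The number of all genes called in edgeR was 1 with total counts only. With 1 library left out it was 0 to 1, 1 being without control replicate 3. In these settings 0 of the 9 genes were called. The cause of these differences was not tested. The number of the 9 genes with groups apart was 1 to 3 with 1 library left out. It was 3 without control replicate 3 (Aldh1a1, Rdh10 and Rara, where 27.7% of all genes were apart) and 2 without CKO replicate 1 (Aldh1a1 and Aldh1a3, where 15.6% were).

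Scaling by total counts alone moved the median of all genes to 0.10 and turned Rdh10 to 0.0070 and Aldh1a3 to 0.10. Aldh1a3, near 0 throughout, was 0.0020 with RLE size factors, 0.0022 in DESeq2 and 0.0018 with its prior. With 1 library left out it ran from -0.090 to 0.11. Over the same settings Aldh1a2 ran from -0.71 to 0.63, Crabp1 from -0.13 to 0.59, Crabp2 from -0.13 to 0.31, Rarb from -0.33 to 0.23 and Rarg from -0.50 to 0.86. Leaving out control replicate 1 and CKO replicate 2 together, chosen after seeing the data, gave -0.45 for Aldh1a2, -0.19 for Rarb and -0.067 for Rarg. Replicate numbers were not used as pairs in the main fit. The deviations of pools with the same number correlated at -0.487, 0.09 and 0.442, which cannot decide whether the pools were collected in pairs. With the replicate number as a block, Rarb was -0.0017, Aldh1a1 was -0.71 and 0 of the 9 genes were called. Of the 9 genes, Aldh1a2 held the fewest counts, 30 to 195 per library.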
